A study of Haberlea rhodopensis with 10 samples.

Results

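Leaves of Haberlea rhodopensis, a small resurrection plant, were compared between severe dehydration, called D20, and regular watering, called F. All 85267 assembled transcripts (unigenes) that reached at least 1 FPKM, fragments scaled to unigene length and library size, in 2 or more of the 10 libraries of the series were tested, out of 142473 that carry values. They were then described by function, as far as the names of their best protein hits allow. Watered plants (F, labelled as untreated, with a relative water content of about 100% in the labels and 90% in the design text) and plants dried to a relative water content of 20% (D20, labelled as extensively dehydrated) gave 2 libraries each, written F-1, F-2, D20-1 and D20-2. Milder drying to 75% (D75), the dry state below 5 or at 6% (DT) and plants watered again to 100% in the labels and 90% in the design text (R) gave 2 libraries each as well and are shown as context. All plants were propagated in vitro and were grown in pots for about 1 year. F plants were watered regularly, and the plants of the other stages were dried by withholding water. Leaves were taken by a chlorophyll fluorescence readout that stands for water content, so that the stage of a leaf was inferred and not weighed. The study used 4 or more plants per sampling point, and how these were divided over the 2 libraries is not given. The p-values therefore measure only the spread between libraries, and 2 libraries against 2 cannot reach an exact two-sided permutation p below 0.333 for a single value.

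A resurrection plant keeps its leaves alive after nearly all cell water is lost. Such plants are known to close down photosynthesis and growth in an ordered way, to store sucrose and raffinose sugars that replace water around membranes, and to fill cells with late embryogenesis abundant (LEA) proteins, small hydrophilic proteins that are also made in ripening seeds. Much of this programme is set off by abscisic acid (ABA), the hormone of water deficit, which acts through PYL receptors, protein phosphatases 2C and SnRK2 kinases.

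Fragments on unigenes ran from 4522835 in F-2 to 12734565 in D20-2, with a median of 9395582.5 over the 10 libraries. The pair of F libraries ranked unigenes alike with Spearman's rho of 0.884 and the D20 pair with 0.927. Raw reads of the D75 and D20 libraries share one length and those of F, DT and R another, so in D20 against F the read length and the stage cannot be told apart, and D20 against D75, within one read length, is given for the main groups and for most groups where it turned the balance of rises and falls. Unigenes with a best hit in an alga, diatom or oomycete held 0.194% and 0.130% of summed FPKM in F and 0.300% and 0.301% at D20.

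At D20, 11953 unigenes were higher than in F (14.0% of those tested) and 15172 were lower (17.8%), at an adjusted p below 0.05 in a quasi-likelihood fit by edgeR to the 10 libraries together. Against D75, 9126 were higher at D20 (10.7%) and 12364 lower (14.5%). These percentages are the background against which each functional group below is read. The median log2 fold change of all tested unigenes was -0.33 against F, and the median size of a called change was 2.73 upwards and 3.91 downwards on the log2 scale. No call was smaller than 0.98 on that scale. In limma fits of log2(FPKM + 1) the split was 9080 higher and 22193 lower, and with a pseudocount of 0.1 it was 9161 and 23811. The edgeR counts fell to 7012 and 7476 without D20-1, to 7252 and 8262 without D20-2, to 7385 and 10864 without F-1 and to 6102 and 9529 without F-2. For this reason brackets after the count of a group give its value without each library that moved it by more than 1.5 times, or, for counts below 10 that moved as much, its range over the 10 fits that leave out 1 library each. The background of 14.0% and 17.8% holds for the full fit alone. Calls over all unigenes moved too when a library was left out, so bracketed values are not to be read against it. The larger of the numbers risen and fallen lay on another side, or both were equal, against D75 in 9 of the 92 groups. A single gene given below as risen or fallen kept its call without any 1 of the 10 libraries unless the text says otherwise.

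Called unigenes held a large part of the transcript pool. The unigenes called higher took 11% and 9.20% of summed FPKM in the F libraries and 63.4% and 59.3% in the D20 libraries, with 18.9% and 23.3% at D75 and 14.1% and 18.7% after rehydration. Those called lower held 43.4% and 46.7% in F and 2.33% and 2.86% at D20, and 41.2% and 34.9% in R. These shares describe the calls and carry no test of their own. Among the 100 most abundant unigenes of F, 60 were called lower and 4 higher, while among the 100 most abundant of D20, 78 were called higher. Choosing unigenes by a high level in one compared stage favours calls in that direction, so these counts are descriptive only. The lists of 100 had 23 unigenes in common, which is 23 of 100 for each stage.

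**Figure D1:**
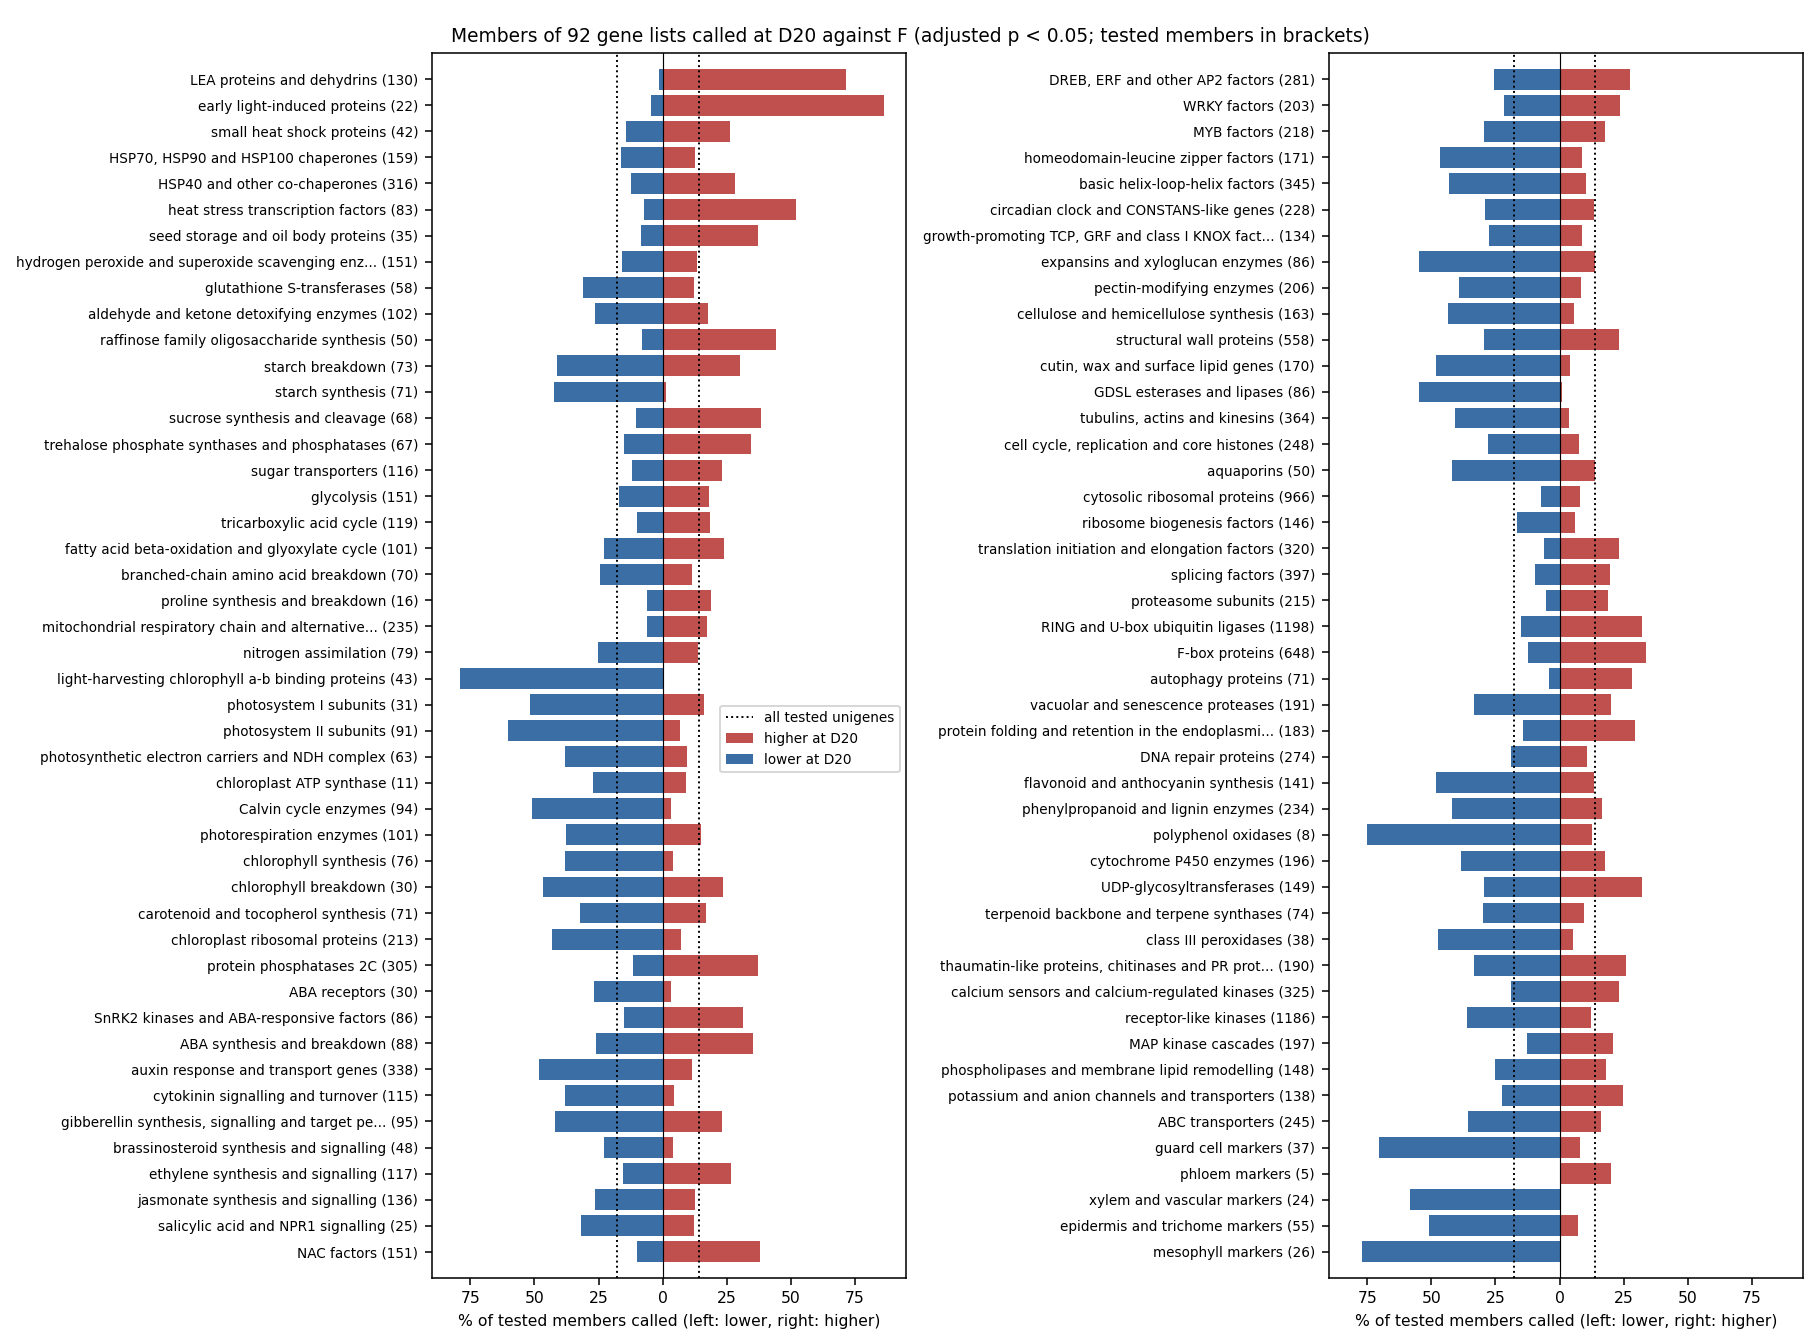
Percentage of tested members of each functional group called higher (red, to the right) or lower (blue, to the left) at D20 against F at an adjusted p below 0.05, with the number of tested members in brackets and dotted lines at 14.0% and 17.8%, the shares of all tested unigenes. Early light-induced and LEA proteins reach farthest to the right, and light-harvesting proteins, mesophyll markers and polyphenol oxidases reach farthest to the left.

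Most LEA transcripts rose in the severely dehydrated leaf. Of 130 tested LEA and dehydrin unigenes, 93 rose against F (71.5%, where 14.0% of all tested unigenes did) and 2 (0 to 3) fell, with a median log2 of 3.74, and 63 rose against D75. Together the matched LEA unigenes made up 5.94% and 2.60% of summed FPKM in F, 5.81% and 9.45% at D75, 18.6% and 16.4% at D20 and 7.40% and 11.8% in the dry state, so their share was highest in the D20 libraries. A LEA unigene, CL12215.Contig1, stood at 4.09 and 1.84 scaled FPKM (FPKM rescaled with the factors of edgeR) in F and at 1828 and 1785 at D20, with 36.1 and 44.8 in R. The desiccation protectant CL15119.Contig1, a LEA14-type protein, measured 101 and 18.5 in F and 4019 and 3196 at D20, a 60.3-fold rise (log2 5.91 ± 0.99, log2 fold change ± SE, adjusted p = 0.00096). In both, every D20 value lay above every F and D75 value. Not every seed-type protein moved beyond the spread. Desiccation-related protein PCC6-19, Unigene15371, measured 3269 and 589 in F against 8026 and 8129 at D20 and missed the threshold (log2 2.07 ± 0.75, adjusted p = 0.053), with F-2 far below F-1. Storage and oil body proteins, the reserves of seeds, counted 13 (8 without D20-1 or F-1, 7 without F-2) risen and 3 fallen of 35, and the 12S storage protein CRD homolog CL17621.Contig2 rose 16.9-fold, from 13 and 8.05 to 183 and 174.

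Early light-induced proteins (ELIPs), which sit in the thylakoid membrane and bind chlorophyll freed under stress, had the highest share of risen members among the 92 groups. Of 22 tested ELIP unigenes, 19 rose and 1 fell, with a median log2 of 7.82 against F, and 20 rose and 1 fell against D75. Their summed share went from 0.0315% and 0.0341% of FPKM in F to 4.06% and 3.35% at D20 and 6.08% and 7.80% in the dry state, so it was higher still in the dry leaf. Unigene32083 measured 1.56 and 1.08 in F, 62.2 and 172 at D75, 2084 and 1777 at D20, 2141 and 3246 in DT and 112 and 185 in R (1429.5-fold up at D20, log2 10.48 ± 0.84, adjusted p = 2.7e-05). A single ELIP went the other way. Unigene32087 stood at 117 and 81.9 in F and at 0.582 and 0.716 at D20, a 149.9-fold fall (log2 -7.23 ± 0.75, adjusted p = 6.2e-05), and was back at 115 and 57.2 in R. The primers of the study that mark the LEA, LEA14-type and ELIP unigenes are printed 5′ to 3′, with no part in capitals, because they show which members of these large families the study followed by qPCR.
LEA CL12215.Contig1 forward: aaggtgggaggaggaaga
LEA CL12215.Contig1 reverse: gtgacggctgtagtgctg
LEA14-type CL15119.Contig1 forward: ccaacatctgcgttcacaat
LEA14-type CL15119.Contig1 reverse: catcgtatcgtcgtttcctt
ELIP Unigene32083 forward: tggttgaggatggtggtg
ELIP Unigene32083 reverse: tgtccgtagcctttgtgc

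Chaperones, which keep other proteins folded, did not move as one group. Heat stress transcription factors, the activators of chaperone genes, counted 43 (26 without F-2) risen and 6 fallen of 83 (51.8% risen, background 14.0%). HSP40 proteins and other co-chaperones counted 89 (36 to 47 without any 1 of the F and D20 libraries) risen and 39 (25 without D20-1, 24 without D20-2) fallen of 316. The HSP70, HSP90 and HSP100 families counted 20 (9 to 10 without any 1 of the F and D20 libraries) risen and 26 (8 to 14 without any 1 of the F and D20 libraries, 40 without D75-1) fallen of 159, near or below the shares of all tested unigenes. Small heat shock proteins counted 11 (7 without D20-1 or F-1 or F-2) risen and 6 (2 to 7) fallen of 42 (1 and 3 among the 16 that stand alone in the assembly), and took 0.0513% and 0.0506% of FPKM at D20 but 0.565% and 0.181% in DT. Single members rose. The class I small heat shock protein CL882.Contig3 went from 4.06 and 2.97 in F to 114 and 103 at D20 and on to 955 and 321 in DT (log2 4.93 ± 0.65 for D20 against F, adjusted p = 0.00021). The chloroplast DnaJ protein 11, Unigene1695, went from 24.6 and 27.4 to 625 and 473, a 21.1-fold rise (adjusted p = 0.00019). Heat shock cognate 70, CL1701.Contig2, went from 387 and 299 to 2653 and 2592 (7.65-fold, adjusted p = 0.0035). Metallothionein-like CL635.Contig3, of a family of small cysteine-rich metal-binding proteins, was among the most abundant transcripts of the drying leaf, at 839.9 and 466 in F against 9894 and 12886 at D20 (17.4-fold, adjusted p = 0.00098).

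Enzymes against reactive oxygen and toxic carbonyls held members of both directions. Scavengers of hydrogen peroxide and superoxide counted 20 (10 without D20-1, 13 without D20-2, 9 without F-2, 31 without D75-1, 32 without D75-2) risen and 24 fallen of 151, near the background, and their share of FPKM was 0.856% and 0.938% in F and 0.698% and 0.703% at D20. A glutathione peroxidase of the phospholipid hydroperoxide type, CL11908.Contig1, which repairs oxidized membrane lipids, rose from 173 and 104 to 3194 and 3157 (22.9-fold, log2 4.52 ± 0.64, adjusted p = 0.00035). Catalase isozyme 3, CL7689.Contig3, fell instead, with a log2 of -3.91 to -2.89 over the fits that leave out 1 library each (call lost without D20-1). Glutathione S-transferases, which couple glutathione to toxic compounds, counted 7 (4 to 8) risen and 18 (9 without D20-1) fallen of 58. A member named GST 23, CL3788.Contig4, rose from 36.6 and 20.4 to 191 and 173 (6.37-fold, adjusted p = 0.00093). A member named parC, Unigene22415, fell, with a log2 of -2.79 to -1.82 over the same fits (call lost without D20-1). Of 102 aldehyde and ketone detoxifying enzymes, 18 (11 without D20-1 or F-2) rose and 27 (15 without D20-1, 17 without D20-2) fell, yet their summed share went from 0.179% and 0.179% to 0.637% and 0.528% of FPKM. An aldose reductase, Unigene33220, which reduces aldehydes and sugars, measured 25 and 1.18 in F, 3931 and 2944 at D20 and 2268 and 4193 in DT (261-fold, log2 8.03 ± 1.41, adjusted p = 0.0013). Aldehyde dehydrogenase Unigene43002 fell 28.9-fold instead, from 256 and 174 to 7.13 and 7.72 (adjusted p = 8.2e-05).

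**Figure D2:**
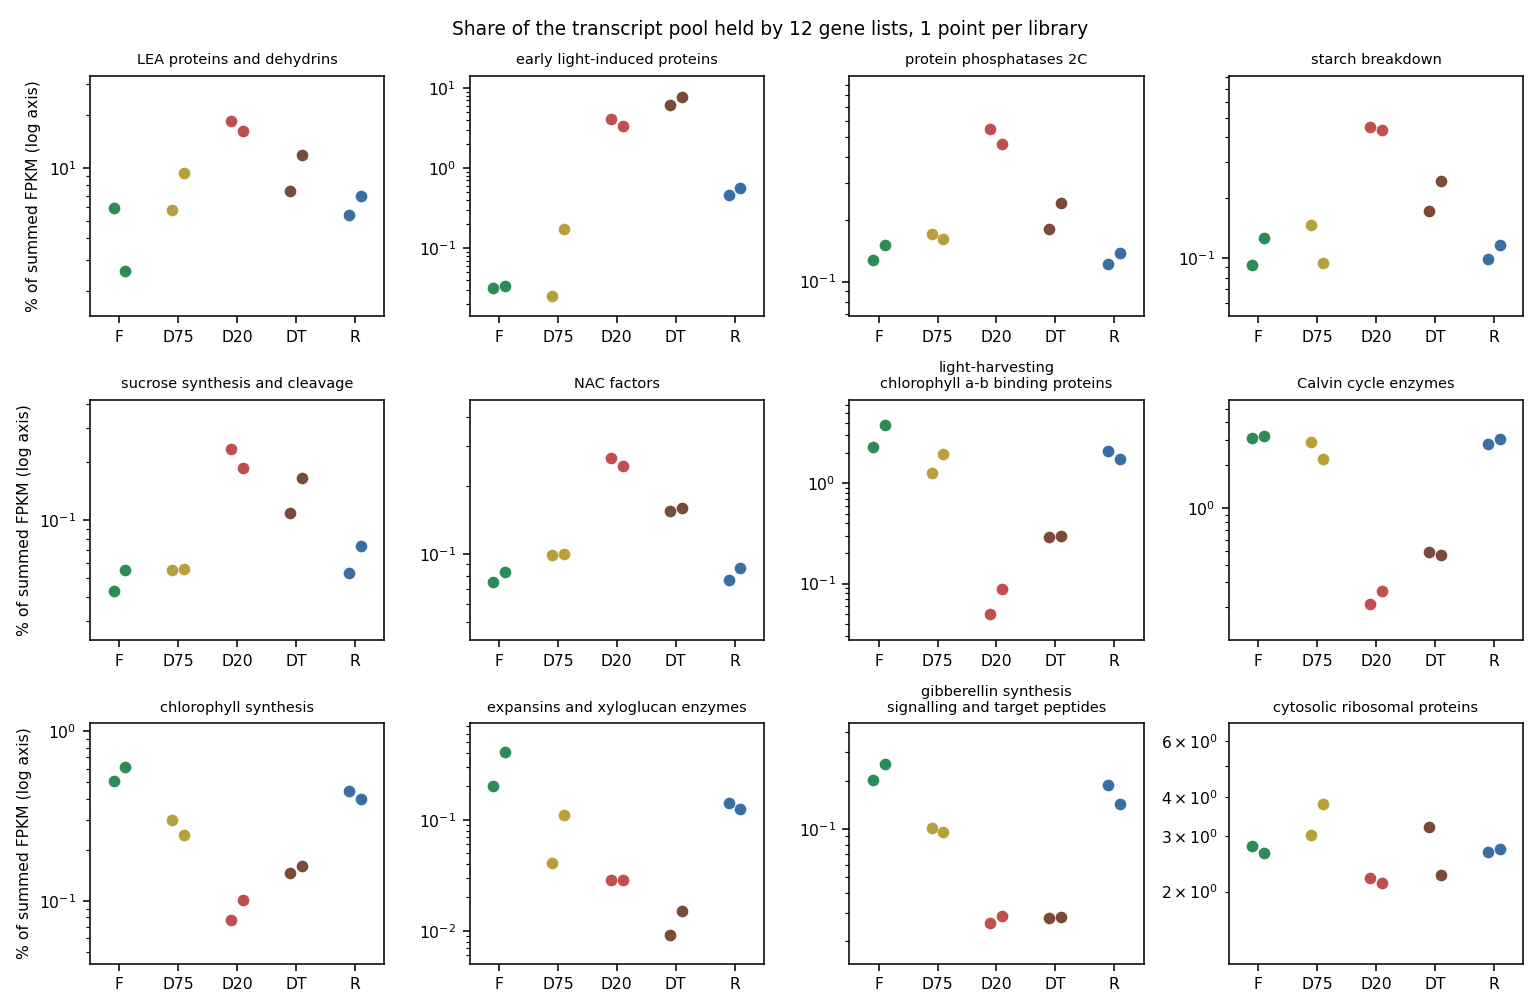
Share of summed FPKM, in percent, that selected functional groups take in each of the 10 libraries, 1 point per library by stage. LEA proteins take 2.60% to 5.94% in the F libraries and 16.4% to 18.6% at D20, while light-harvesting proteins take 2.31% to 3.79% in F and 0.0494% to 0.0892% at D20.

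More genes for raffinose sugars and for sucrose rose than fell at D20. Raffinose family oligosaccharides are built by galactinol synthase and raffinose or stachyose synthase, and 22 of 50 such unigenes rose while 4 fell (median log2 2.21; 20 and 6 against D75). A raffinose synthase, CL15513.Contig6 (galactinol-sucrose galactosyltransferase), measured 3.65 and 4.28 in F, 17.9 and 81 at D75 and 1434 and 1267 at D20, so that both D20 libraries lay far above the other early stages. A galactinol synthase of lower level, Unigene42048, measured 0.121 and 0.336 in F, from 3 fragments in all, and 34.4 and 45.4 at D20, a ratio with a 95% counting interval of 64.3 to 916 (adjusted p = 9.9e-05). The summed share of the group was 0.509% and 0.411% in F and 0.615% and 0.592% at D20. An abundant galactinol synthase 1, CL2862.Contig5, went down, from 1144 and 532 to 249 and 203 (adjusted p = 0.018, call lost without D20-1, D20-2 or F-1). The primers that the study lists for the galactinol synthase that rose are printed here.
GolS Unigene42048 forward: ctggaagaggtgaaggtggtc
GolS Unigene42048 reverse: cggtggcaatgaaatgaac

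Of 68 unigenes for sucrose synthesis and cleavage, 26 (17 without D20-1) rose and 7 (3 to 11) fell. Sucrose synthase 2, CL9818.Contig1, a reversible enzyme between sucrose and UDP-glucose, rose from 97.5 and 41.8 to 1182 and 768 (14-fold, log2 3.81 ± 0.64, adjusted p = 0.00097). A soluble acid invertase, CL3341.Contig6, which splits sucrose, measured 16.8 and 27.5 in F and 0.749 and 1.31 at D20 (adjusted p = 0.0043, call lost without D20-1).

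More starch synthesis genes fell than rose. Of 71 unigenes for starch synthesis, 1 (0 to 5) rose and 30 (16 without D20-1 or D20-2, 15 without F-2) fell, and the small subunit of ADP-glucose pyrophosphorylase, Unigene8737, the entry enzyme of starch, dropped from 305 and 263 in F to 8.75 and 7.02 at D20, 36-fold (log2 -5.17 ± 0.47, adjusted p = 3.9e-05). It was back at 210.0 and 217 in R. For starch breakdown, 22 of 73 rose and 30 (19 without D20-1 or D20-2) fell, so members went both ways. Beta-amylase 1, CL1706.Contig3, which releases maltose and is known from Arabidopsis for its part in drought, measured 41.6 and 29.2 in F, 90.2 and 71.3 at D75 and 1806 and 1794 at D20. Alpha-glucan water dikinase, Unigene47376, which phosphorylates starch so that it can be degraded, fell from 84.4 and 127 to 22.3 and 13.4 (5.90-fold, adjusted p = 0.0014).

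Trehalose phosphate enzymes, which make and remove the sugar signal trehalose 6-phosphate, counted 23 risen and 10 (3 without D20-1, 4 without F-2, 16 without D75-1 or D75-2) fallen of 67. The synthase-like CL3404.Contig6 rose from 0.400 and 0.368 to 32.8 and 34.1 (86-fold, adjusted p = 7.6e-05). The phosphatase Unigene19546 measured 7.25 and 5.59 in F and had 0 fragments in both D20 libraries, at least 74.1-fold lower when 3 fragments over both libraries are taken as the floor. Of 116 sugar transporters, 27 (16 without F-2) rose and 14 (8 without D20-1, 7 without D20-2, 9 without F-1, 22 without D75-1) fell, with 21 and 22 against D75, and a vacuolar monosaccharide-sensing protein, CL2661.Contig1, rose 6.87-fold from 96.9 and 73 to 707 and 461.

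Respiration and nitrogen genes held members of both directions. Glycolysis counted 27 (16 without D20-1, 14 without F-2) risen and 26 (12 without D20-1 or D20-2, 15 without F-2) fallen of 151. These are 17.9% and 17.2%, near the background of 14.0% and 17.8%. The fructose-bisphosphate aldolase CL9464.Contig1, named as a cytoplasmic isozyme, went from 797 and 269.8 to 2.49 and 0.557 (348-fold lower, adjusted p = 8.8e-05). The tricarboxylic acid cycle counted 22 (9 without D20-1, 11 without D20-2, 10 without F-2, 34 without D75-2) risen and 12 (5 without D20-1, 4 without D20-2, 6 without F-2) fallen of 119. A mitochondrial aconitase, Unigene18866, an enzyme of that cycle, rose from 74 and 89.3 to 465 and 455 (5.63-fold, adjusted p = 0.0022). Of 235 unigenes of the respiratory chain, 41 (18 without D20-1, 24 without D20-2, 13 without F-2) rose and 14 (5 to 7 without any 1 of the F and D20 libraries, 27 without D75-1, 24 without D75-2, 9 without R-1) fell. Fatty acid beta-oxidation and the glyoxylate cycle, which turn stored fat into sugar precursors, counted 24 (8 to 14 without any 1 of the F and D20 libraries) risen and 23 (12 to 15 without any 1 of the F and D20 libraries) fallen of 101, with 18 and 21 against D75. Proline dehydrogenase 2, CL3680.Contig5, which degrades the osmolyte proline, rose from 0.544 and 0.429 to 10.7 and 18.1 (28.8-fold, adjusted p = 0.0001). The proline-making pyrroline-5-carboxylate synthase CL14039.Contig2 fell from 2.47 and 4.85 to 0.580 and 0.324 (8.01-fold, adjusted p = 0.00097). Of 16 unigenes for proline synthesis and breakdown, 3 rose and 1 fell, with a median log2 of 0.36, so most were not called. The fallen count was higher without D75-1 or D75-2. Asparagine synthetase CL12312.Contig3, which stores nitrogen in asparagine, rose from 223 and 89.1 to 3055 and 2902 (19.1-fold, adjusted p = 0.0037), whereas the leaf isozyme of glutamine synthetase, CL16341.Contig1, fell from 255 and 251 to 13.5 and 16.1 (17-fold, adjusted p = 0.00011). Over 79 nitrogen assimilation unigenes, 11 (6 without D20-2 or F-2) rose and 20 (9 to 13 without any 1 of the F and D20 libraries) fell.

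Light harvesting had the highest share of fallen members among the 92 groups. Of 43 light-harvesting chlorophyll a-b binding unigenes, which form the antennae, 34 fell (79.1%, where 17.8% of all tested unigenes did), with a median log2 of -6.32. None rose in edgeR's quasi-likelihood test, at an unadjusted p below 0.05 the count was also 0, and DESeq2, edgeR's exact test and both limma fits gave 0. Without D75-1 or D75-2, however, the quasi-likelihood test called some members higher. The group went from 2.31% and 3.79% of FPKM in F to 0.0494% and 0.0892% at D20, 0.292% and 0.299% in DT and 2.11% and 1.76% in R. The light-harvesting unigene Unigene9580 measured 2502 and 1761 in F, 863 and 1610.4 at D75 and 154 and 295 at D20 (9.49-fold lower, adjusted p = 0.002). Photosystem II subunits counted 6 risen and 55 fallen of 91, and photosystem I subunits 5 (3 to 8) risen and 16 fallen of 31. The oxygen-evolving enhancer protein CL11352.Contig1, which stabilizes the water-splitting centre, went from 2461 and 1383 to 24.8 and 49.1, 52-fold lower (log2 -5.70 ± 0.63, adjusted p = 8.8e-05). A photosystem I reaction centre subunit, Unigene28732, went from 3480.3 and 2705 to 47 and 66.6 (54.4-fold lower, adjusted p = 0.00011). Subunit II of the same photosystem, Unigene10006, which docks ferredoxin, fell 6.02-fold, from 2195 and 1683 to 294 and 350.0 (adjusted p = 0.0032).

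More Calvin cycle genes fell than rose as well. Of 94 Calvin cycle unigenes, 3 (2 to 8) rose and 48 fell (median log2 -3.05; 3 and 49 against D75), and the share of the group went from 3.09% and 3.21% to 0.212% and 0.262% of FPKM. The small chain of RuBisCO, the enzyme that fixes carbon dioxide, stood in CL7824.Contig2 at 9273 and 6364 in F, 3925 and 4892 at D75, 32.8 and 46.2 at D20, 565 and 325 in DT and 7609 and 7050.2 in R. That was 198-fold lower at D20 than in F (log2 -7.63 ± 0.76, adjusted p = 5.1e-05), with the lowest values of all stages at D20 and values in R inside the range of F. A transketolase, Unigene43041, was among the exceptions and rose from 33.8 and 11.5 to 245 and 139 (8.48-fold, adjusted p = 0.0042). Photorespiration, which recycles the oxygenation product of RuBisCO, counted 15 (5 to 8 without any 1 of the F and D20 libraries) risen and 38 fallen of 101. Its glycolate oxidase CL10556.Contig4 fell 7.40-fold, from 2196 and 1465 to 195 and 299.6.

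Chlorophyll synthesis counted 3 risen and 29 fallen of 76. Protochlorophyllide reductase is the light-driven step of the route. Its contig CL15566.Contig1 measured 316 and 342 in F, 49.1 and 73.1 at D75, 0.0693 and 0.355 at D20, 1.40 and 1.79 in DT and 191 and 103 in R (1496-fold lower at D20, log2 -10.55 ± 0.76, adjusted p = 2.5e-05). The sister contig CL15566.Contig2 went from 1019 and 508 to 0.850 and 1.47, and reads may be shared between the contigs. Glutamyl-tRNA reductase, the first committed step of the same route, went up in Unigene37572, from 4.26 and 4.21 to 54.3 and 58.9 (13.3-fold, adjusted p = 0.00013). Chlorophyll breakdown went both ways, with 7 (4 to 8) risen and 14 (8 without D20-1, 6 without D20-2 or F-2) fallen of 30 (4 and 1 of 6 that stand alone in the assembly). Of the pheophytinases, which take the phytol tail off the pigment, Unigene28805 rose from 79.1 and 40.9 to 333 and 296 (adjusted p = 0.0026) and Unigene42950 fell from 62 and 59.4 to 5.79 and 11.2 (adjusted p = 0.00049). Geranylgeranyl reductase CL14580.Contig1, which makes that tail, fell 107-fold, from 278 and 262 to 2.23 and 2.78. Carotenoid and tocopherol genes counted 12 (7 without D20-1 or F-2) risen and 23 (14 without D20-1) fallen of 71. Primers of the study are printed for the reductase and the photosystem I subunit because these are the members that the study followed by qPCR.
POR CL15566.Contig1 forward: aatcgtcggctccatcac
POR CL15566.Contig1 reverse: cgaagtctcctccatctatca
psaD1 Unigene10006 forward: ataaaggctatggcagagga
psaD1 Unigene10006 reverse: ggcgaagatgggagaagg

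**Figure D3:**
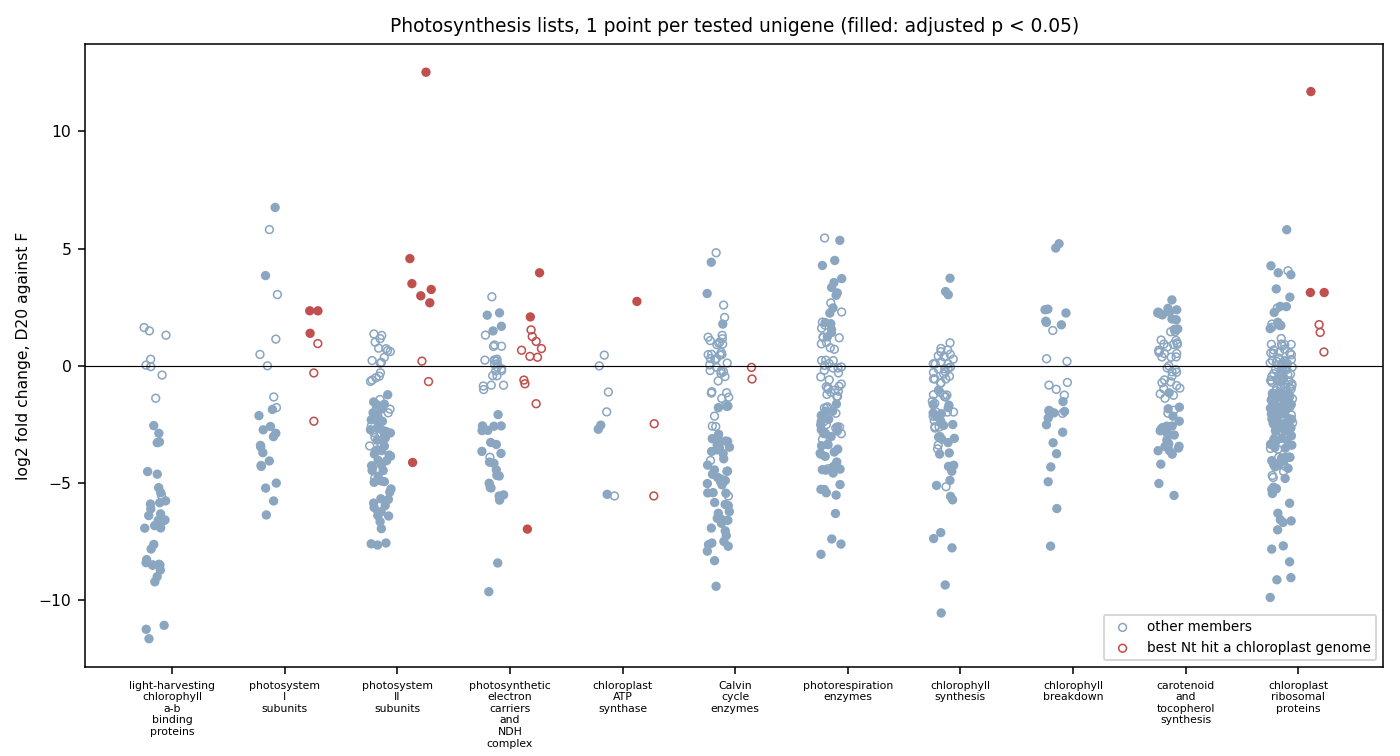
Log2 fold change of D20 against F for each tested unigene of 11 photosynthesis groups, filled where the adjusted p is below 0.05, with unigenes whose best nucleotide hit is a chloroplast genome in red. Most blue points lie below 0, whereas 6 of the 9 red photosystem II points are filled and above 0.

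In the photosystems and chloroplast ribosomal proteins, unigenes that match a chloroplast genome rose in larger part than the others. The split was made after the values had been seen, by whether the best nucleotide hit of a unigene is a chloroplast genome, and has no test of its own. For photosystem II, 6 of 9 such unigenes rose and 1 fell (median log2 2.99), against 54 fallen of the other 82 (median -2.98). For photosystem I, 3 of 6 rose, against 2 risen and 16 fallen of 25. The split follows best hits and does not cleanly part chloroplast-encoded from nuclear genes. P700 apoprotein A1 of photosystem I stood on both sides, with CL6039.Contig1 among the chloroplast genome hits and CL10836.Contig1 among the others. The latter measured 10.9 and 1.59 in F, 32.2 and 225 at D75 and 798 and 580 at D20. For chloroplast ribosomal proteins, 3 of 6 rose, against 12 risen and 92 fallen of 207. The fallen count of that whole group was lower by more than 1.5 times without D20-1 or D20-2. In electron carriers and the NDH complex, 2 of 13 rose and 1 fell, against 4 and 23 of 50. In the chloroplast ATP synthase the median log2 was -2.47 for 3 such unigenes, of which 1 rose, and -2.25 for the other 8, and neither of 2 such Calvin cycle unigenes was called. Over all functions, 32 of 144 chloroplast genome hits rose and 15 fell. Several of the members that rose were also high at D75, the other stage with the read length of D20, and low in DT and R. CP43, an inner antenna of photosystem II, stood in Unigene335 at 0.0235 and 0.0325 in F, 5.33 and 46.5 at D75, 269.8 and 85.9 at D20, 0.152 and 0.0960 in DT and 0.0764 and 0.0721 in R, and cytochrome b6 in Unigene6610, named after its values were seen, at 0.925 and 0.240, 13.6 and 34.2, 13.5 and 5.65, 0.687 and 0.414 and 0.565 and 0.828. For these unigenes the stage and the read-length set cannot be told apart. Others did not follow that set: CP43 contig CL844.Contig4, also named after its values were seen, measured 3.82 and 1.03 in F, 17 and 24.1 at D75, 71 and 45.4 at D20, 19.4 and 19.5 in DT and 5.88 and 7.69 in R (log2 4.57, adjusted p = 0.00024).

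More protein phosphatases 2C rose than fell at D20, and more ABA receptors fell than rose. Protein phosphatases 2C, the class that includes the brakes released when ABA binds its receptors, counted 113 (64 without F-2) risen (37%) and 35 (20 without D20-1, 19 without D20-2) fallen of 305, and 82 and 30 against D75. Their share of FPKM went from 0.127% and 0.150% to 0.552% and 0.465%. Phosphatase 2C 8, CL4847.Contig3, measured 0.152 and 0 in F, from 2 fragments in all, 0.140 and 2.04 at D75, 2087 and 1581 at D20, 172 and 409.7 in DT and 10.1 and 11.3 in R. Its ratio of D20 to F has a 95% counting interval of 5774 to 172249, so the gene was close to undetected in watered leaves. Phosphatase 2C 57, CL2867.Contig1, fell from 30.1 and 26.9 to 0.990 and 2.09 (18.4-fold, adjusted p = 6.9e-05). The PYL receptors counted 1 (0 to 2) risen and 8 (4 to 15) fallen of 30, and PYL2, CL16395.Contig1, fell from 38.7 and 28.3 to 4.75 and 4.24 (7.44-fold, adjusted p = 0.00022). The receptor called higher was PYL1, CL3961.Contig1, at 19.6 and 9.06 in F, 16 and 54.2 at D75 and 55.4 and 75.8 at D20 (log2 2.19 ± 0.56, adjusted p = 0.011), a call lost without D20-2 or F-2. SnRK2 kinases and ABA-responsive factors, which carry the signal on, counted 27 risen and 13 (6 without D20-1, 7 without D20-2) fallen of 86. An ABI5-like factor, Unigene32434, went against that direction and fell from 163 and 84.1 to 2.22 and 1.63 (63.9-fold, adjusted p = 5.8e-05). Of 88 genes for making and degrading ABA, 31 rose and 23 (15 without D20-1 or F-1, 14 without D20-2) fell. A zeaxanthin epoxidase, CL6266.Contig3, of the carotenoid route that leads to ABA, rose from 4.25 and 3.36 to 60.4 and 49.8 (14.4-fold, adjusted p = 0.00012).

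Genes of the growth hormones fell more often than they rose. Auxin response and transport genes counted 38 (16 to 25 without any 1 of the F and D20 libraries) risen and 163 (103 without D20-1) fallen of 338 (median log2 -2.03), and cytokinin genes 5 (1 to 6) risen and 44 (28 without D20-1) fallen of 115. Gibberellin genes counted 22 (13 without F-2) risen and 40 fallen of 95, and brassinosteroid genes 2 (1 to 5) risen and 11 (1 to 6 without any 1 of the F and D20 libraries, 7 without R-1) fallen of 48. An auxin-binding protein of the ABP19a type, Unigene32814, went from 162 and 589 in F to 2.13 and 6.55 at D20 and was already at 6.15 and 19.6 at D75, so that D20 against D75 gave a log2 of -1.57 and an adjusted p of 0.16. The cytokinin response regulator Unigene28319 fell from 41 and 29.2 to 0.696 and 0.396 (63.1-fold, adjusted p = 6.9e-05). Gibberellin-regulated protein 9, CL5985.Contig4, fell from 313 and 253 to 3.07 and 4.79 (71.8-fold, adjusted p = 3.3e-05). Delta(24)-sterol reductase, CL4902.Contig1, a step in the sterol route to brassinosteroids, fell from 104 and 103 to 2.08 and 2.44 (45.7-fold, adjusted p = 4.0e-05).

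Genes of ethylene and jasmonate went both ways. Ethylene genes counted 31 (18 without D20-2, 20 without F-1, 15 without F-2) risen and 18 (6 without D20-1, 8 without D20-2) fallen of 117, with 14 and 20 against D75, jasmonate genes 17 (10 without D20-1 or D20-2, 6 without F-2) risen and 36 (19 without D20-1, 17 without D20-2, 20 without F-1) fallen of 136, and salicylic acid and NPR1 genes 3 risen and 8 fallen of 25. NPR1 itself, CL7379.Contig5, the salicylic acid coactivator of Arabidopsis, rose from 0.316 and 0.509 to 12.2 and 9.06 (25.9-fold, log2 4.70 ± 0.53, adjusted p = 9.4e-05). The jasmonate repressor TIFY 10A, CL8835.Contig3, rose from 3.17 and 1.94 to 89.3 and 117 (39.9-fold, adjusted p = 7.7e-05). A linoleate 13-lipoxygenase, CL15498.Contig2, the first enzyme of jasmonate synthesis, fell from 524 and 472 to 3.84 and 2.35 (161-fold, log2 -7.33 ± 0.60, adjusted p = 2.7e-05) and was at 563 and 506 in R.

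Among transcription factors, NAC and heat stress factors mostly rose where called, and homeodomain and helix-loop-helix factors mostly fell. NAC factors, many of which act in drought and senescence, counted 57 (35 without F-1, 32 without F-2) risen (37.7%) and 15 (8 without D20-2, 9 without F-1) fallen of 151, and 43 and 20 against D75. AP2 factors, WRKY factors and MYB factors moved both ways, with 77 risen and 72 (32 without D20-1, 37 without D20-2) fallen of 281, 48 and 44 (20 without D20-1, 23 without D20-2, 27 without F-1) of 203, and 39 (21 without F-2) and 64 (32 without D20-1, 36 without D20-2) of 218. Against D75 the AP2 factors gave 43 and 60 and the WRKY factors 28 and 44, and of 57 WRKY unigenes that stand alone in the assembly 12 rose and 14 fell. Homeodomain-leucine zipper factors counted 15 risen and 80 (41 without D20-1) fallen of 171, and basic helix-loop-helix factors 35 (16 to 20 without any 1 of the F and D20 libraries, 23 without R-2) and 149 (98 without D20-1) of 345. Clock and CONSTANS-like genes counted 31 (13 to 20 without any 1 of the F and D20 libraries, 48 without D75-1, 50 without D75-2) risen and 66 (37 without D20-1) fallen of 228, and the growth-promoting TCP, GRF and KNOX factors 12 (6 without D20-2 or F-1, 7 without F-2) and 37 (19 without D20-1, 21 without D20-2) of 134.

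NAC domain protein 2, Unigene12927, measured 2.47 and 2.28 in F, 7.5 and 28.5 at D75, 211 and 196 at D20, 79.2 and 118 in DT and 6.93 and 9.63 in R (85.3-fold up at D20, log2 6.41 ± 0.68, adjusted p = 6.7e-05). Its highest values were those of D20. MYB44, Unigene33352, linked to ABA and stomatal closure in Arabidopsis, rose from 6.23 and 3.24 to 339 and 389 (76.2-fold, adjusted p = 3.9e-05). A WRKY factor, Unigene14548, rose from 4.12 and 2.28 to 171 and 132 (46.4-fold), while another, Unigene18064, fell from 29.1 and 24.6 to 0.732 and 0.562 (41-fold). Homeodomain-leucine zipper protein CL8484.Contig5 rose against the trend of its family, from 4.38 and 2.28 to 100.4 and 92.6 (28.6-fold, adjusted p = 4.9e-05). A DREB-type factor, CL6496.Contig4, of the family that activates drought-responsive genes, fell from 101 and 60.2 to 0.757 and 0.679 (110.2-fold, adjusted p = 7.6e-05). The helix-loop-helix factor bHLH63, CL11177.Contig1, which partners cryptochrome 2 in Arabidopsis, fell from 168 and 144 to 0.173 and 0.414 (520.1-fold, log2 -9.02 ± 0.58, adjusted p = 2.1e-05). ERD15, CL17641.Contig1, an early dehydration gene, rose from 10.2 and 7.69 to 120.1 and 116 (13.1-fold, adjusted p = 6.5e-05). The primers of the NAC and ERD15 unigenes follow, since each marks a regulator that rose with drying.
NAC Unigene12927 forward: accgaacccgaagaacaa
NAC Unigene12927 reverse: tggcgtggtaaaggactg
ERD15 CL17641.Contig1 forward: gacgctcaatccaaatgc
ERD15 CL17641.Contig1 reverse: gtcacaaggttccaccactc

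**Figure D4:**
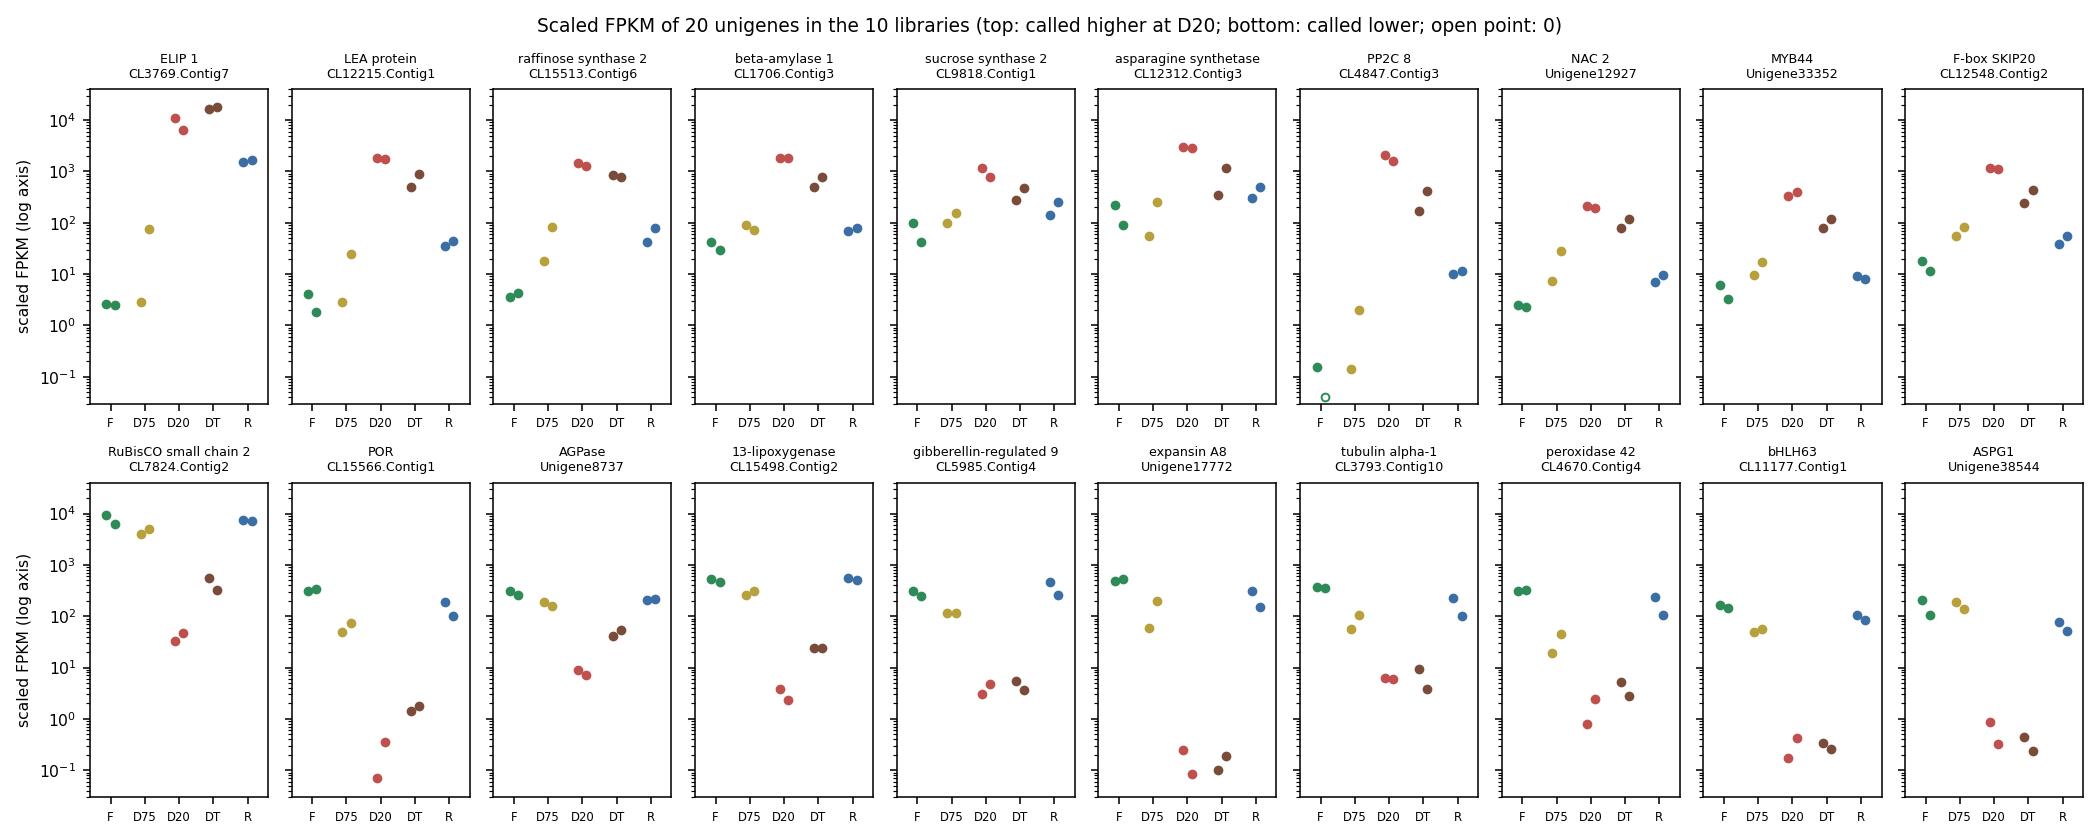
Scaled FPKM on a log axis in each of the 10 libraries for 10 unigenes called higher (top) and 10 called lower (bottom) at D20 against F, 1 point per library by stage, with a value of 0 drawn as an open point at the bottom. In all 20 panels the D20 points lie apart from the F points, which follows from showing called unigenes only. In the 10 lower panels the R points lie above the D20 points.

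More genes of cell expansion and wall building fell than rose. Of 86 expansins and xyloglucan enzymes, which loosen the wall for growth, 12 (2 to 6 without any 1 of the F and D20 libraries) rose and 47 fell (median log2 -4.66), and 8 rose and 18 fell against D75. Pectin-modifying enzymes counted 17 (10 without D20-1, 9 without F-2) risen and 81 (49 without D20-1, 52 without F-2) fallen of 206, and cellulose and hemicellulose synthesis 9 (4 to 16) and 71 (41 without D20-1, 44 without F-2) of 163. Expansin A8, Unigene17772, measured 477 and 533 in F, 57.9 and 196 at D75, 0.252 and 0.0859 at D20, 0.0997 and 0.189 in DT and 309 and 149 in R (2801-fold lower at D20, log2 -11.45 ± 0.94, adjusted p = 2.7e-05). Pectate lyase 5, CL9920.Contig3, measured 311 and 433 in F and 0.189 and 0 at D20, where 3 fragments stood against 8991 in F (ratio of D20 to F with a 95% counting interval of 5.45e-05 to 0.000773). A xyloglucan endotransglucosylase, CL8199.Contig2, rose instead, from 0.229 and 0.633 to 52.8 and 69.5 (145-fold, adjusted p = 0.00021).

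Structural wall proteins held members of both directions. Of 558, 129 (84 without D20-1, 72 without F-2) rose and 165 (109 without D20-1) fell, and the share of FPKM was 2.36% and 2.15% in F and 2.80% and 3.05% at D20. A glycine-rich wall protein, Unigene27463, rose from 287 and 42.8 to 6889.8 and 6174 (39.6-fold, adjusted p = 0.0012). An extensin, Unigene43055, a hydroxyproline-rich wall protein, fell from 833 and 2090.1 to 1.25 and 1.43 (1076-fold, adjusted p = 2.7e-05).

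More genes of the cuticle, the cytoskeleton and the cell cycle fell than rose. Cutin, wax and surface lipid genes counted 7 (1 to 9) risen and 82 (52 without D20-1, 54 without D20-2) fallen of 170, and GDSL esterases and lipases 1 (1 to 2) risen and 47 (25 without D20-1 or D20-2, 26 without F-2) fallen of 86. The GDSL lipase APG, CL4964.Contig1, went from 288 and 257 in F to 0.0730 and 0 at D20, that is from 5895 fragments to 1 (ratio of D20 to F with a 95% counting interval of 3.40e-06 to 0.000749). A lipid-transfer protein, CL2675.Contig1, of the kind that carries surface lipids, fell 13.8-fold, from 1236 and 936 to 94.3 and 63.4. Tubulins, actins and kinesins counted 14 (3 without D20-1 or F-2, 4 without D20-2) risen and 149 (81 without D20-1, 89 without D20-2, 88 without F-2) fallen of 364, and cell cycle, replication and histone genes 19 (11 without D20-1, 6 without F-2) and 69 (41 without D20-1, 40 without D20-2) of 248. Tubulin alpha-1, CL3793.Contig10, a microtubule subunit, fell from 368 and 358 to 6.38 and 5.94 (58.9-fold, adjusted p = 8.5e-05). Aquaporins, the water channels, counted 7 (2 to 9) risen and 21 fallen of 50. The vacuolar channel TIP1-1, CL14445.Contig3, stood at 3952 and 3479 in F and 2884 and 1827 at D20 and did not pass the test (log2 -0.66 ± 0.63, adjusted p = 0.44).

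Ubiquitin ligases, translation factors and proteasome subunits had more members risen than fallen. Cytosolic ribosomal proteins counted 76 (32 without D20-1, 41 without D20-2, 24 without F-2, 149 without D75-1, 159 without D75-2) risen and 69 (18 to 44 without any 1 of the F and D20 libraries, 125 without D75-1, 113 without D75-2) fallen of 966, with a median log2 of 0.00, shares below the background of 14.0% and 17.8%, and 17 risen and 61 fallen against D75. Translation factors counted 74 (40 to 48 without any 1 of the F and D20 libraries) risen and 19 (3 to 10 without any 1 of the F and D20 libraries, 29 without D75-1) fallen of 320, splicing factors 78 (48 without D20-1, 46 without D20-2, 39 without F-2) and 38 (12 without D20-1, 21 without D20-2, 14 without F-2, 60 without D75-1, 59 without D75-2) of 397, and proteasome subunits 41 (17 to 21 without any 1 of the F and D20 libraries) and 11 (3 to 5 without any 1 of the F and D20 libraries, 23 without D75-1 or D75-2, 7 without R-1 or R-2) of 215. Ubiquitin ligases mark proteins for the proteasome, and their RING and U-box classes counted 385 (238 without F-2) risen (32.1%) and 180 (84 to 118 without any 1 of the F and D20 libraries) fallen of 1198, and F-box proteins 219 (125 without F-2) risen (33.8%) and 79 (26 to 45 without any 1 of the F and D20 libraries) fallen of 648. The F-box protein SKIP20, CL12548.Contig2, measured 17.8 and 11.3 in F, 55.6 and 84.5 at D75, 1142 and 1138 at D20 and 242 and 437 in DT (78.4-fold up at D20, log2 6.29 ± 0.61, adjusted p = 4.7e-05). Autophagy proteins, which deliver cell parts to the vacuole, counted 20 (13 without F-2) risen and 3 (0 to 5) fallen of 71, and ATG8i, Unigene33449, a protein of the autophagosome membrane, rose from 57 and 36.8 to 247 and 266 (5.46-fold, adjusted p = 0.0014). Folding and retention in the endoplasmic reticulum counted 54 (34 without D20-1 or F-2, 35 without F-1) risen and 26 (12 without D20-1, 10 without D20-2, 14 without F-2) fallen of 183. There a protein disulfide isomerase, CL265.Contig3, rose 4.11-fold, from 71.6 and 76.9 to 336 and 274, and calreticulin, CL1943.Contig4, a calcium-binding chaperone, fell 8.70-fold, from 147 and 117 to 19.3 and 11.

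Proteases and DNA repair held members of both directions. Vacuolar and senescence proteases counted 38 (23 without D20-1 or F-2) risen and 64 fallen of 191. Proteins named ASPARTIC PROTEASE IN GUARD CELL, of which the first is known in Arabidopsis for drought avoidance through stomata, gave opposite results, since Unigene38544 fell from 204 and 104 to 0.856 and 0.329 (257-fold, adjusted p = 3.1e-05) and CL7796.Contig3 rose from 2.09 and 1.47 to 19.4 and 29.3 (13.6-fold, adjusted p = 9.2e-05). DNA repair genes counted 29 (11 to 15 without any 1 of the F and D20 libraries) risen and 52 (22 without D20-1, 28 without D20-2, 25 without F-2, 81 without D75-1, 79 without D75-2) fallen of 274. These are 10.6% and 19.0%, close to the background of 14.0% and 17.8%. A large subunit of replication protein A, CL9730.Contig3, which coats single-stranded DNA, fell from 371 and 198 to 15.4 and 33.1 (11.7-fold, adjusted p = 0.00059). The mismatch repair protein PMS1, Unigene32571, stood at 48.2 and 30.0 in F, 119 and 228 at D75 and 165 and 120.3 at D20 (log2 1.86 ± 0.47 against F, adjusted p = 0.01), called higher except without D20-1 or F-2.

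Flavonoid, lignin and peroxidase genes fell more often than they rose. Flavonoid and anthocyanin genes counted 19 (7 to 10 without any 1 of the F and D20 libraries) risen and 68 (45 without D20-1, 43 without D20-2) fallen of 141, and phenylpropanoid and lignin genes 39 (20 without F-2) and 98 of 234. An anthocyanidin glucoside xylosyltransferase, CL8029.Contig2, which adds a sugar to the pigment, fell from 564 and 337 to 1.87 and 4.59 (139-fold, adjusted p = 0.0014). Cinnamoyl-CoA reductase 1, Unigene10001, at the entry to lignin, fell 15.8-fold, from 734 and 575 to 41.9 and 40.9. MYB46, CL14520.Contig2, a switch of secondary wall synthesis, measured 17 and 20.4 in F and 0 and 0.0607 at D20, that is 487 fragments against 1. Class III peroxidases counted 2 (0 to 2) risen and 18 fallen of 38, and peroxidase 42, CL4670.Contig4, fell 197-fold, from 305 and 326 to 0.799 and 2.39. Polyphenol oxidases, which brown cut tissue, counted 1 (1 to 2) risen and 6 fallen of 8, with 2 and 2 against D75. CL6698.Contig4 fell from 55.5 and 130.4 to 0.0504 and 0.155 (adjusted p = 0.0011) and CL1839.Contig2 rose from 1.35 and 0.801 to 62.6 and 29.5 (adjusted p = 0.00062). The 8 polyphenol oxidase unigenes belong to 3 assembly clusters and none stands alone, so their calls may share reads.

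UDP-glycosyltransferases and cytochrome P450 enzymes, large families that decorate small molecules, counted 48 (30 without D20-1, 26 without F-2) risen and 44 (23 without D20-1) fallen of 149 (11 and 22 of 48 that stand alone in the assembly), and 35 (22 without F-2) and 75 of 196. P450 81D1, CL7581.Contig5, measured 0.361 and 0.0713 in F, 0.350 and 38.9 at D75, 1374 and 1275 at D20, 834 and 639 in DT and 30.3 and 55 in R (5601-fold up at D20, log2 12.45 ± 1.91, adjusted p = 0.00055), with the D75 libraries far apart. Glycosyltransferase 73B1, CL5558.Contig1, rose from 69.1 and 11.6 to 975 and 764 (21.5-fold), and 91C1, CL15475.Contig2, fell from 102 and 220.4 to 0.124 and 0.634 (419-fold). Thaumatin-like, chitinase and other pathogenesis-related proteins counted 49 (27 without F-1, 31 without F-2) risen and 63 (40 without D20-1) fallen of 190, with 47 and 38 against D75. An organ-specific protein S2, Unigene1192, was among the most abundant transcripts of watered leaves and fell from 5427 and 2449 to 0.479 and 3.19 (2137-fold, log2 -11.06 ± 2.11, adjusted p = 0.0021).

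In signalling, receptor-like kinases, which read outside signals at the plasma membrane, counted 144 (78 to 95 without any 1 of the F and D20 libraries) risen and 429 (262 without D20-1, 269 without D20-2, 283 without F-2) fallen of 1186 (36.2% fallen, background 17.8%). Calcium sensors and calcium-regulated kinases counted 75 (48 without F-2) and 62 (32 without D20-1, 23 without D20-2, 33 without F-2) of 325 (9 and 13 of 93 that stand alone), and MAP kinase cascades 41 (19 to 22 without any 1 of the F and D20 libraries) and 25 (8 without D20-1, 15 without F-2, 38 without D75-1) of 197. A proline-rich receptor-like kinase, CL9391.Contig2, rose from 1.19 and 0.822 to 183 and 289 (231-fold, adjusted p = 0.00019), and an S-receptor-like kinase, Unigene42409, fell from 56.3 and 75.5 to 1.20 and 0.633 (71.5-fold, adjusted p = 4.1e-05). A MAP kinase kinase kinase, Unigene14116, rose from 1.24 and 0.360 to 147 and 111 (155-fold, adjusted p = 0.00021). Potassium and anion channels and transporters counted 34 (20 without F-1 or F-2) risen and 31 (16 without D20-1 or D20-2, 15 without F-2) fallen of 138 (6 and 11 of 52 that stand alone). The beta subunit of a voltage-gated potassium channel, CL3366.Contig1, rose from 37.1 and 18.1 to 1160.1 and 985 (38.8-fold, adjusted p = 0.00032). Potassium transporter 2, CL8128.Contig2, measured 11.5 and 19.9 in F and had 0 fragments in both D20 libraries, at least 255-fold lower. ABC transporters, pumps driven by ATP, counted 40 (25 without D20-1 or F-1, 22 without F-2) risen and 87 (48 without D20-1, 53 without D20-2 or F-2) fallen of 245, and ABCG5, Unigene43365, of the subfamily that exports surface lipids and hormones, went from 45.6 and 57 to 0 fragments, at least 702-fold lower. Membrane lipid enzymes counted 27 and 37 (19 without D20-1, 22 without D20-2) of 148.

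Markers of leaf cell types moved with the comparison. Mesophyll markers (RuBisCO small chain, chlorophyll a-b binding proteins and chloroplast carbonic anhydrase) were present in F at 2.39% and 2.73% of FPKM, as leaf tissue should show, and 20 of 26 fell. None rose in edgeR's test, at an unadjusted p below 0.05 or by any other tool run. Members of this list can also stand in the light-harvesting and Calvin cycle groups, as CL7824.Contig2 does in the latter. The fall of mesophyll markers thus partly repeats those groups and is not a separate readout. Guard cell markers counted 3 risen and 26 fallen of 37, and their summed share went from 0.0591% and 0.0772% in F to 0.00582% and 0.00665% at D20. Most of that list is aspartic proteases named after guard cells, with 1 risen and 5 fallen of 8 named ASPG 1 and 1 risen and 11 fallen of 13 named ASPG 2. Of the defining genes, the anion channel SLAC1 gave 1 risen and 2 fallen of 3, the potassium channel KAT1 2 fallen of 2, the factor FAMA 3 fallen of 3, and the factor MUTE, at 0 in both D20 libraries, 2 fallen of 4. Xylem markers counted 0 risen and 14 (5 without D20-1, 7 without D20-2, 8 without F-2) fallen of 24, with 0 risen at an unadjusted p below 0.05 and by every other tool, and went from 0.00867% and 0.0177% to 0.000937% and 0.00106%. Epidermis and trichome markers counted 4 (2 to 4) risen and 28 (18 without D20-1) fallen of 55, with 0.0233% and 0.0392% in F against 0.00673% and 0.00815% at D20. Phloem markers counted 1 (0 to 2) risen and 0 fallen of 5 by edgeR, with 0 fallen at an unadjusted p below 0.05 and 1 in each limma fit, and a sieve element occlusion protein was at 0 in both D20 libraries. The risen epidermis and trichome unigenes were 2 of 2 named GLABRA2 expression modulator and 2 of 4 named TRANSPARENT TESTA GLABRA 1. In the same list MERISTEM L1 gave 6 fallen of 6 and Protodermal factor 1 gave 5 fallen of 7. In such bulk samples, fewer cells of a type and less RNA per cell cannot be told apart, and the part of cell type shares in the group counts was not tested.

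Contigs of one assembly cluster, which may be alleles, copies or splice forms of a gene and may share reads, did not always move together. Of 4324 clusters with 2 or more called contigs, 1754 held rises alone, 2061 falls alone and 509 (11.8%) both. In the cluster of ACC oxidase, the enzyme that releases ethylene, CL10894.Contig3 rose from 3.86 and 3.56 to 753 and 1066 (244-fold, adjusted p = 0.00096), while CL10894.Contig4 fell from 529 and 201 to 33.4 and 22 (13.2-fold, adjusted p = 0.00052). In a cluster of plasma membrane aquaporins, CL7497.Contig3 fell from 196 and 239 to 1.63 and 4.93 (66.3-fold, adjusted p = 0.00019). Its sister PIP2-7, CL7497.Contig4, stood at 594 and 271 in F and 1341 and 1209 at D20 (log2 1.56 ± 0.48, adjusted p = 0.028), a call lost without D20-1, D20-2, F-2, R-1 or R-2. In another cluster, the glycine-rich protein CL4017.Contig2 went from 6656 and 2877 to 485 and 1245 (call lost without D20-1) and CL4017.Contig9, named as an ABA and environmental stress-inducible protein, from 1511 and 163 to 4509 and 4466 (call lost without F-2 or any 1 of the D20, DT and R libraries).

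**Figure D5:**
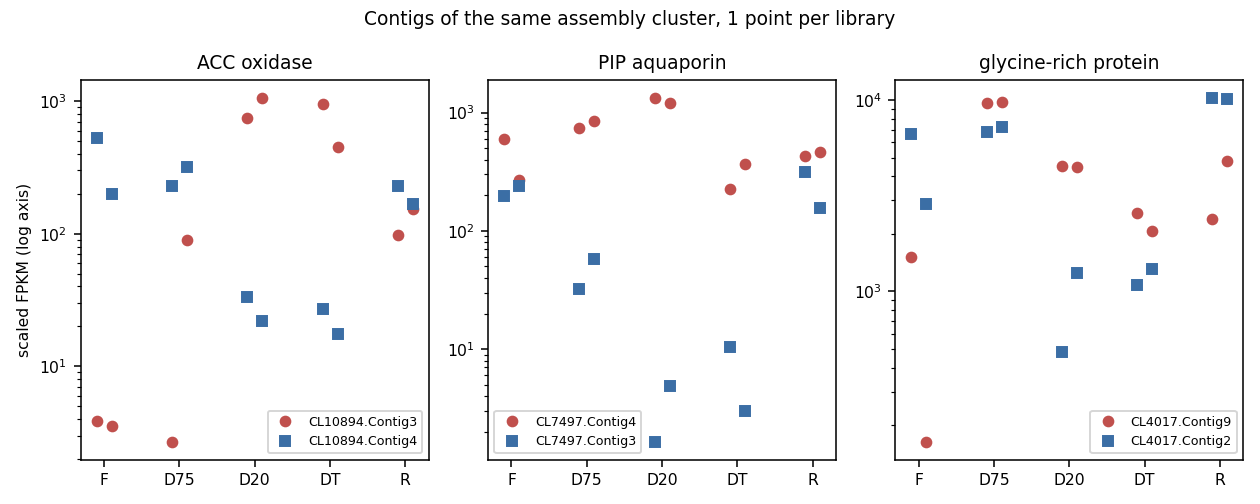
Scaled FPKM on a log axis in the 10 libraries for pairs of contigs of 1 assembly cluster called in opposite directions at D20 against F, 1 point per library by stage. For ACC oxidase, Contig3 goes from 3.56 to 3.86 in F to 753 to 1066 at D20, and Contig4 from 201 to 529 in F to 22.0 to 33.4 at D20.

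Several unigenes for which the study designed primers showed no call. The DNA damage tolerance protein DRT102, Unigene23945, measured 44.1 and 25.6 in F and 53.5 and 58 at D20 (log2 0.68 ± 0.38, adjusted p = 0.19). The unigene CL7987.Contig3, named as a U1 ribonucleoprotein of the splicing machinery, measured 38.1 and 32.6 and 48.7 and 57.2 (log2 0.58 ± 0.34, adjusted p = 0.21). EIN3-binding F-box protein CL8725.Contig4, which turns ethylene signalling down, measured 15.4 and 28.5 and 2.96 and 10.9 (adjusted p = 0.074), and a thioredoxin h, CL13910.Contig2, 38.3 and 14.8 and 13.2 and 10.7 (adjusted p = 0.23). A missed threshold with 2 libraries a stage does not show that these genes were equal. The peroxidase 12 unigene, Unigene19468, was called, at 139 and 211 in F against 1757 and 1113 at D20 (adjusted p = 0.015), and lost the call without D20-1, F-1 or F-2.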

How the data were processed

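RNA of mature leaves was sequenced in 10 libraries, 2 per stage. Per the labels and the study's methods, the authors made TruSeq libraries, ran them on a HiSeq instrument, used SeqPrep and Sickle for trimming, Trinity for the assembly and RSEM for abundance. Tool versions and library strand are not given in the sources used here. The deposited table holds a count of fragments per unigene and library, in whole numbers without normalization, and an FPKM value that the authors made from it. Its annotation gives best hits in other species and COG identifiers without COG classes, so functional groups were built from words in the names, and a unigene can belong to more than one.

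Only unigenes reaching an FPKM of 1 in 2 or more libraries entered the tests. The fragments were fitted with edgeR 4.0.16 in R 4.3.3 (quasi-likelihood test, TMM scaling, 1 mean per stage, all 10 libraries), with Benjamini-Hochberg adjustment over all tested unigenes. Scaled FPKM uses the TMM library sizes. Alternatives used DESeq2 1.42.0, limma 3.58.1 on log2(FPKM + 1) and log2(FPKM + 0.1), other filters and scalings, sums per assembly cluster, and fits without each library. The fit was tested on simulated data.

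Unigenes were named by a rule: in each group and direction the called member with the highest mean scaled FPKM over F and D20, in each direction the 15 called unigenes with the largest difference in mean scaled FPKM and a described function, and those with primers in the study. Exceptions are marked where they occur. Members and lists were chosen with earlier results of these data known. Ratios with 1 to 3 fragments in a stage carry exact 95% intervals that cover counting error only.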

Additional observations from a re-analysis of the deposited data

How the results depend on the processing

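Against 11953 unigenes higher and 15172 lower, summing fragments over the contigs of each assembly cluster gave 7168 and 8804, and asking for an adjusted p of at most 0.001 and a fold of at least 2 gave 2201 and 3084. Limma on log2(FPKM + 0.1) gave 23811 lower. Leaving out 1 of the 10 libraries gave 6102 to 16182 higher and 7476 to 20664 lower. DESeq2, edgeR's exact test, both other filters, median-of-ratios scaling and a fit to the F and D20 libraries alone kept both of these counts within 1.5 times. Of the 184 group counts, 2 for each of 92 groups, 49 moved by more than 1.5 times in limma on log2(FPKM + 1), 58 on log2(FPKM + 0.1), 135 with sums per cluster, 169 at the stricter threshold and 19 in the fit to the F and D20 libraries alone, against 1 to 3 under each of DESeq2, the exact test, the other filters, the other scaling and the block. The cause of these shifts was not tested. None of the 218 named unigenes changed direction under the settings that give a value per unigene, which leaves out the sums per cluster and the stricter threshold, and 143 of the 212 called kept their call without any 1 library. Counts over unigenes that stand alone in the assembly were added after seeing the data and moved 173 of the 184 group counts, as fewer unigenes enter. The larger direction differed, or both were equal, in 12 of 92 groups, such as small heat shock proteins (1 risen, 3 fallen), UDP-glycosyltransferases (11, 22), calcium sensors (9, 13) and chlorophyll breakdown (4, 1). It was kept by LEA proteins (28, 1) and ELIPs (12, 1).

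With the replicate number as a block, 10919 unigenes were higher and 13820 lower. Deviations of same-numbered F and D20 libraries correlated at 0.0886 across unigenes, and the correlations over the 10 pairs of stages ran from -0.164 to 0.0886. These values show no strong shared pattern. With 2 libraries a stage they cannot decide whether the numbers pair the samples.

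The smallest called change was 0.98 on the log2 scale. Names rest on best hits in other species, and contigs of a cluster may share reads.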

Other observations

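Some transcripts had fragments in the libraries of one stage and not the other. Of the unigenes called higher at D20, 1048 had 0 fragments in both F libraries, and of those called lower, 3647 had 0 fragments in both D20 libraries. The share of all tested unigenes with 0 fragments in a stage was not counted. Depth also differed, with 8707220 and 4522835 fragments in F against 12539577 and 12734565 at D20. Zeros of the F and D20 stages are therefore not alike, and they do not show that a transcript was absent. Changes of at least 5 on the log2 scale were held by 1954 unigenes called higher and 5492 called lower.

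Unigenes whose best hit is an alga, diatom or oomycete numbered 850 among those tested, with 63 higher and 36 lower at D20.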
